A study of Mus musculus with 8 samples.

Results

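The globin genes Hba-a1, Hba-a2, Hbb-bs and Hbb-bt and the erythroid gene Alas2 were followed through liver RNA-seq libraries of 4 male mice labelled HFD WT and 4 labelled HFD Inpp4b-/-. These 5 genes, of the 18095 in the count table, were selected by name on the counts of these same libraries, so their differences between genotypes are given as descriptions with no test. All 8 mice, and their dams from before mating, received a high-fat diet (HFD), and livers were taken at 12 weeks of age. The HFD Inpp4b-/- mice are labelled as homozygous for loss of Inpp4b, which encodes a phosphoinositide phosphatase, and the HFD WT mice as wild-type. The labels name C57BL/6 as the strain background and the paper's methods name FVB. Total RNA was depleted of ribosomal RNA with no stated perfusion of the liver. Library totals ran from 25893430 to 31427831 counts among the HFD WT mice, and from 32738435 to 36662531 among the HFD Inpp4b-/- mice. HFD WT replicate 4 stood apart from the other 3 of its group in Alas2, and the log2 fold changes of the members are given with and without it.

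Hemoglobin is a tetramer of alpha and beta globin chains, each of which holds a heme group, and it fills the red cell. Adult mice carry a pair of nearly identical alpha globin genes, Hba-a1 and Hba-a2, on chromosome 11, and a pair of adult beta globin genes, Hbb-bs and Hbb-bt, on chromosome 7. Alas2 on the X chromosome encodes the erythroid form of the enzyme that commits glycine and succinyl-CoA to heme, while Alas1 does so in hepatocytes and other cells. The adult mouse liver is not a main site of red cell formation, but young red cells in its blood still hold globin mRNA. In RNA from whole tissue, fewer cells of a type and less RNA per cell cannot be told apart.

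The sequences of the paralogs are shown because they limit how well reads can be split between them. In the GENCODE M21 transcripts, the coding sequences of Hba-a1 and Hba-a2 are 426 bases each and differ at 1 base, C381T, counted from the A of the start codon with the Hba-a1 base first. The change lies in codon 127 and leaves the amino acid as it is. Bases 337 to 426 of both genes follow 5′ to 3′, with the differing base in capitals.
Hba-a1: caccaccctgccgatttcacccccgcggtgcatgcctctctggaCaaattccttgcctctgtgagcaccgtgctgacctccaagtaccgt
Hba-a2: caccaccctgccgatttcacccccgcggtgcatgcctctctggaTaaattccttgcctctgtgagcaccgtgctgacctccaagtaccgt

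Hbb-bs and Hbb-bt, with 441 coding bases each, also differ at 1 base, C417T in codon 139, counted in the same way with the Hbb-bs base first. This change is silent too. Bases 352 to 441 are shown, again with the differing base in capitals.
Hbb-bs: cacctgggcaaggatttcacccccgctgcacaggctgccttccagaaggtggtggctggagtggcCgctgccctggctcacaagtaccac
Hbb-bt: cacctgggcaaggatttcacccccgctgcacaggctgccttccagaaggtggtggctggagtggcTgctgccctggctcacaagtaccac

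Of all stretches of 150 bases, the read length, 51.6% of those in the Hba-a1 transcript were absent from that of Hba-a2, and 34.3% of those in Hba-a2 were absent from Hba-a1. For the beta pair, the shares were 41.3% for Hbb-bs and 49.3% for Hbb-bt. The rest cannot place a read by themselves, and the treatment of such reads in the counting is not given in the sources used here. These shares compare the transcripts with each other and not with the genome. Coding starts at base 197 of the Hba-a1 transcript and at base 36 of the Hba-a2 transcript. The extra leading bases of Hba-a1 lie before its RefSeq start, in sequence also found before Hba-a2 (below). The 51.6% may therefore overstate what alignment to the genome can place. Each paralog's count, and the sum over a pair, may therefore hold only part of the reads of the pair. The reference sequences are those of C57BL/6J, and with FVB named as well, how alleles of another strain would split between paralogs was not tested. This limit applies to every paralog count and share below.

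The promoters are shown because the alpha paralogs share theirs almost wholly and the beta paralogs do not. Within 300 bases around the RefSeq starts, the longest exact shared run was 297 bases for Hba-a1 and Hba-a2, and 14 bases for Hbb-bs and Hbb-bt. Any differing base ends such a run, so the 14 bases do not measure how alike the beta promoters are as a whole. The 120 bases before each start (RefSeq, GRCm38.p6) are printed 5′ to 3′ on the strand of the gene, with matches to 4 motifs in capitals. The windows are chr11:32283552-32283671 (+) for Hba-a1, chr7:103827929-103828048 (-) for Hbb-bs, chr7:103813924-103814043 (-) for Hbb-bt and chrX:150547297-150547416 (+) for Alas2. The Hba-a1 and Hbb-bs windows lie inside the GENCODE M21 spans of their genes given below, and the Hbb-bt and Alas2 windows overlap theirs in part. The RefSeq and GENCODE starts thus differ.
Hba-a1: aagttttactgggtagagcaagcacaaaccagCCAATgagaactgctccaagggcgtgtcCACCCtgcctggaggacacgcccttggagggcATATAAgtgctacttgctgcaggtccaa
Hbb-bs: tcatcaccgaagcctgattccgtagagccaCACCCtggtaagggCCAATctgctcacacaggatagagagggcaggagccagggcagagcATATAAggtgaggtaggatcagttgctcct
Hbb-bt: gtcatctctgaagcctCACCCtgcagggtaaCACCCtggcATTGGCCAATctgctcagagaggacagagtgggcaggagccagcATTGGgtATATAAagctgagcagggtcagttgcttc
Alas2: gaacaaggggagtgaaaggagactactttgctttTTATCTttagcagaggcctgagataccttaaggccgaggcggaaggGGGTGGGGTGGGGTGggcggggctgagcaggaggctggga

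The motifs were searched on both strands. They were the CACCC element, the CCAAT box, a TATA box with the letters ATATAA, and a GATA site. As a GATA site, the letters AGATAA counted, and so did the letters with a final G, AGATAG, or with a leading T, as in TGATAA and also in TGATAG. No matches to different motifs overlapped. Each globin promoter held a CACCC element, a CCAAT box and a TATA box. Hbb-bs and Hba-a1 held 1 CCAAT each and Hbb-bt held 3, and Hbb-bt held 2 CACCC where the other 2 held 1. The Alas2 window held 1 GATA match and 3 CACCC matches and neither of the other motifs. Among 32851 promoter windows of this length, 31.7% held a CACCC element, 21.3% a CCAAT box, 4.47% this TATA box and 12.8% a GATA site. A match is a description of the letters and no evidence of binding.

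Inpp4b was examined first as a check of the labels. Its counts in replicates 1 to 4 were 6, 20, 5 and 8 in the libraries labelled HFD WT and 33, 10, 9 and 14 in the libraries labelled HFD Inpp4b-/-. The libraries labelled HFD Inpp4b-/- thus held no fewer Inpp4b reads, and gene totals do not show which exons were read. Each direction below thus rests on the labels. Alb, which encodes serum albumin and marks hepatocytes, had the highest level per length of all 18095 genes.

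All 5 members passed the expression filter and were fitted with edgeR together with the other genes, 14866 in all. Levels are given as CPM, the counts of a gene over the normalized library total, scaled by 1e+06, and levels of different genes are compared as CPM per kilobase of exon. Averaged over the 8 libraries, the order was Hba-a1 (172 CPM per kilobase, rank 290 of 18095), Hbb-bs (96.0, rank 528), Hbb-bt (16.1, rank 2294), Alas2 (10.2, rank 3272) and Hba-a2 (2.67, rank 7543). The ranges over libraries of neighbors in this order overlapped, from 47.0 to 277 for Hba-a1 and 46.2 to 153 for Hbb-bs, and from 6.85 to 27.5 for Hbb-bt and 5.15 to 36.0 for Alas2. Those of Alas2 and Hba-a2 (0.354 to 7.63) overlapped too, and those of Hbb-bs and Hbb-bt did not. The 4 globin genes together took 0.00947% to 0.0346% of the counts of a library.

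**Figure D1:**
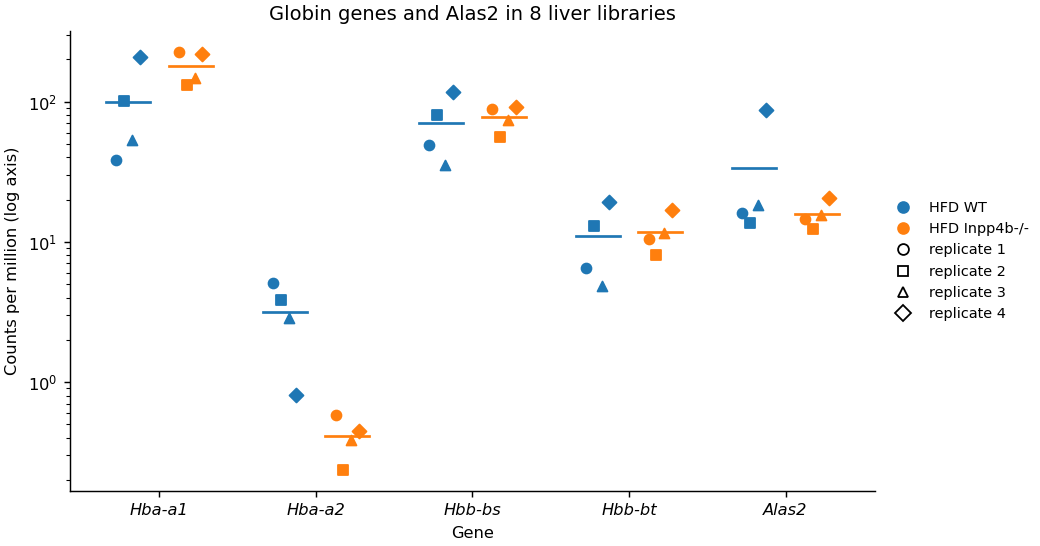
CPM of each gene (log axis) in the 4 HFD WT (blue) and 4 HFD Inpp4b-/- (orange) libraries, where symbols mark the replicate number and bars the group mean. Hba-a2 is the gene whose groups do not overlap (0.806 CPM and above in HFD WT, 0.582 and below in HFD Inpp4b-/-), and Alas2 of HFD WT replicate 4 stands at 86.4 CPM.

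Hba-a1 (ENSMUSG00000069919, chr11:32283511-32284465, plus strand of GRCm38) encodes an adult alpha globin and had the most reads of the members. Its counts in replicates 1 to 4 were 1035, 3203, 1572 and 5391 in HFD WT. In HFD Inpp4b-/- they were 8118, 5019, 4576 and 7732. In CPM, HFD WT replicates 1 and 3 were lowest and HFD WT replicate 4, at 207 CPM, lay within the HFD Inpp4b-/- range of 132 to 225, so that the groups overlapped. The means were 99.7 ± 76.3 CPM in HFD WT and 180.3 ± 47.6 in HFD Inpp4b-/- (SD, n = 4 each). The fitted log2 fold change, HFD Inpp4b-/- over HFD WT, was 0.85 (SE 0.46), and 1.49 without HFD WT replicate 4.

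Hba-a2 (ENSMUSG00000069917, chr11:32296489-32297298, plus strand) encodes the same alpha chain and differed the other way. Its counts were 138, 122, 85 and 21 in HFD WT replicates 1 to 4. In HFD Inpp4b-/- replicates 1 to 4 they were 21, 9, 12 and 16. The group means were 3.15 ± 1.81 CPM in HFD WT and 0.413 ± 0.144 in HFD Inpp4b-/-, a ratio of 7.62. HFD WT replicates 1 to 3 lay at 2.86 to 5.09 CPM, and HFD WT replicate 4, at 0.806, was nearer to the HFD Inpp4b-/- libraries than to the other HFD WT libraries. The log2 fold change was -2.92 (SE 0.54), and -3.24 without that library. Counts of 9 to 21 leave a wide counting error. They stood beside 4576 to 8118 Hba-a1 counts in the same HFD Inpp4b-/- libraries, and whether any came from Hba-a1 was not tested.

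The split between the alpha paralogs therefore varied among the libraries. Hba-a2 made up 11.8% of alpha globin counts in HFD WT replicate 1 (95% Clopper-Pearson interval 9.98 to 13.8), 3.67% in replicate 2 (3.06 to 4.37) and 5.13% in replicate 3 (4.12 to 6.30). In HFD WT replicate 4 it was 0.388% (0.240 to 0.593). In HFD Inpp4b-/- it was 0.179% to 0.262%, with intervals that reached from 0.0819% to 0.456% and overlapped that of HFD WT replicate 4. The intervals cover counting error only. Put the other way, 7.50 to 257 Hba-a1 reads were counted for each Hba-a2 read in HFD WT against 381 to 558 in HFD Inpp4b-/-. The Hba-a1 share of alpha globin averaged 94.8% ± 4.78 in HFD WT and 99.8% ± 0.0403 in HFD Inpp4b-/-.

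Hbb-bs (ENSMUSG00000052305, chr7:103826534-103828096, minus strand) encodes an adult beta globin chain and took most of the beta globin reads. Its counts were 1319, 2549, 1055 and 3053 in HFD WT replicates 1 to 4. In HFD Inpp4b-/- they were 3171, 2126, 2278 and 3245. The HFD Inpp4b-/- libraries, at 55.8 to 91.1 CPM, all lay inside the HFD WT range of 35.5 to 117. The means were 70.4 ± 36.4 and 77.0 ± 16.1 CPM, and the log2 fold change was 0.13 (SE 0.33).

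Hbb-bt (ENSMUSG00000073940, chr7:103812524-103813996, minus strand) encodes the second adult beta globin. It was counted 175, 415, 143 and 504 times in HFD WT and 379, 304, 357 and 600 times in HFD Inpp4b-/-. The HFD Inpp4b-/- libraries again lay inside the HFD WT range, at 7.98 to 16.8 against 4.81 to 19.3 CPM. The log2 fold change was 0.10 (SE 0.40). Leaving out single libraries moved the log2 fold change between -0.090 and 0.49 for Hbb-bs and between -0.15 and 0.53 for Hbb-bt, so neither had a settled direction. The upper end of each range was the value without HFD WT replicate 4.

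Unlike the alpha pair, the beta pair kept a narrow split. Hbb-bt made up 11.7% to 14.2% of beta globin counts in HFD WT against 10.7% to 15.6% in HFD Inpp4b-/-, with means of 13.0% ± 1.31 and 13.1% ± 2.06. Across the 8 libraries, the log2 CPM of Hbb-bs and Hbb-bt had a Pearson correlation of 0.97 and those of Hba-a1 and Hbb-bs of 0.84. That of Hba-a1 and Hba-a2 was -0.79. These correlations describe 8 libraries that share the normalization.

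**Figure D2:**
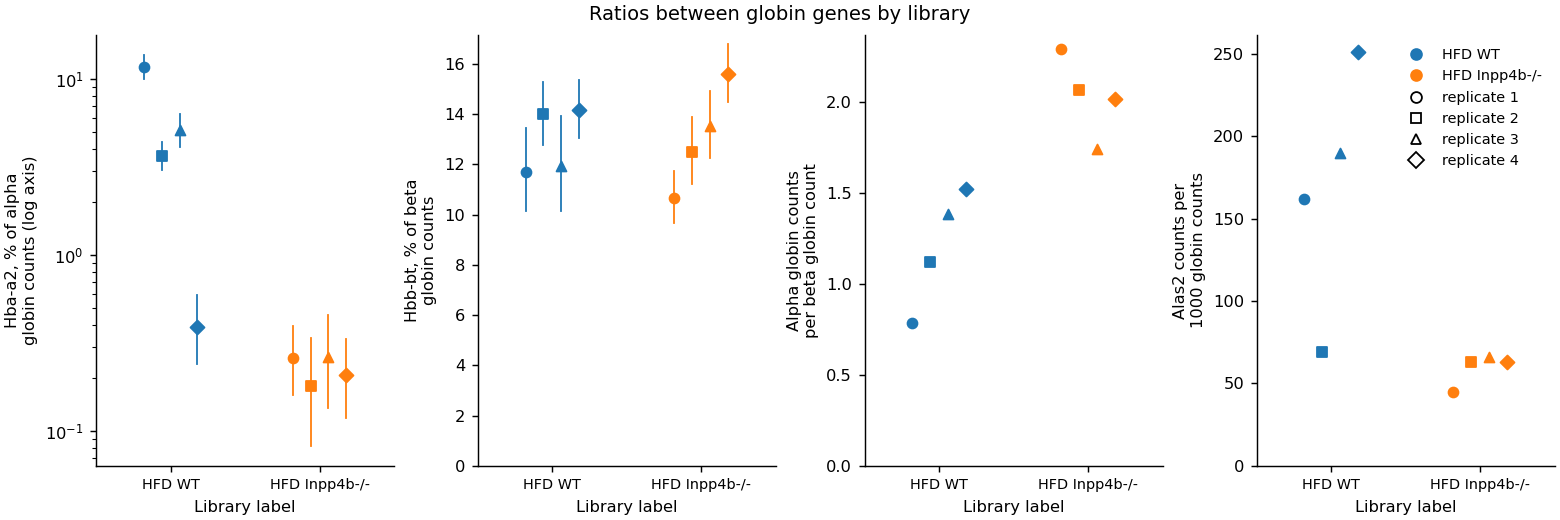
From left, Hba-a2 as a percent of alpha globin counts (log axis), Hbb-bt as a percent of beta globin counts, alpha counts per beta count, and Alas2 counts per 1000 globin counts, for each library (symbols, replicate number; vertical lines, 95% Clopper-Pearson intervals of the 2 shares). Hba-a2 is at 3.67% to 11.8% in 3 HFD WT libraries and at most 0.388% in the other 5, while Hbb-bt stays between 10.7% and 15.6%, and the ratio of alpha to beta is higher in every HFD Inpp4b-/- library.

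The balance of alpha to beta globin reads was higher in each HFD Inpp4b-/- library than in any HFD WT library. Alpha counts per beta count were 0.785, 1.12, 1.38 and 1.52 in HFD WT replicates 1 to 4. They were 2.29, 2.07, 1.74 and 2.02 in HFD Inpp4b-/-. The groups did not overlap, and HFD WT replicate 4 lay with the HFD WT libraries here, in contrast to its Hba-a2 share. The mean was 1.20 ± 0.324 in HFD WT and 2.03 ± 0.227 in HFD Inpp4b-/-. Per kilobase of exon, the ratio was 0.753 to 1.42 in HFD WT against 1.63 to 2.15 in HFD Inpp4b-/-. Hba-a1 reads per Hbb-bs read, which leave the minor paralogs out, were 0.785 to 1.77 against 2.01 to 2.56. This ratio was described with the members' counts known, and no test was made of it.

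All 4 globin genes together summed to 98.3, 198, 96.1 and 344 CPM in HFD WT replicates 1 to 4. In HFD Inpp4b-/- they summed to 324, 196, 232 and 325 CPM. The groups overlapped, since HFD WT replicate 4 had the highest sum of all and HFD WT replicate 2 exceeded HFD Inpp4b-/- replicate 2. The means were 184 ± 117 and 269 ± 65.6 CPM. The log2 ratio of the means was 0.55, and leaving out single libraries moved it from 0.34 to 1.04, the latter without HFD WT replicate 4.

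Alas2 (ENSMUSG00000025270, chrX:150547375-150570638, plus strand) had a different order of libraries from the globin genes. Its counts were 432, 434, 542 and 2252 in HFD WT replicates 1 to 4 and 523, 471, 479 and 731 in HFD Inpp4b-/-. In CPM, 7 of the 8 libraries lay between 12.4 and 20.5, and HFD WT replicate 4 stood alone at 86.4. The log2 fold change was -1.09 (SE 0.55) with that library and -0.022 without it. Per 1000 globin counts, there were 69.0 to 251 Alas2 counts in HFD WT against 44.7 to 66.3 in HFD Inpp4b-/-. HFD WT replicates 1 and 3 reached 162 and 189.8 with few globin reads, and replicate 4 reached 251 with many. HFD WT replicate 4 was thus highest in both Alas2 and the globin sum. The correlation of Alas2 over the 8 libraries was 0.31 with Hba-a1 and 0.52 with Hbb-bs.

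The Alas2 gene lies within Apex2, which encodes an endonuclease of DNA repair and is read from the opposite strand, and 311 of the 2403 exon bases of Alas2 are shared with it. The strand setting of the counting is not given in the sources used here, so reads of those bases cannot be told apart. Apex2 (chosen after its values were seen) also had its highest level in HFD WT replicate 4, at 18.2 CPM against 6.12 to 12.1 in the other libraries.

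**Figure D3:**
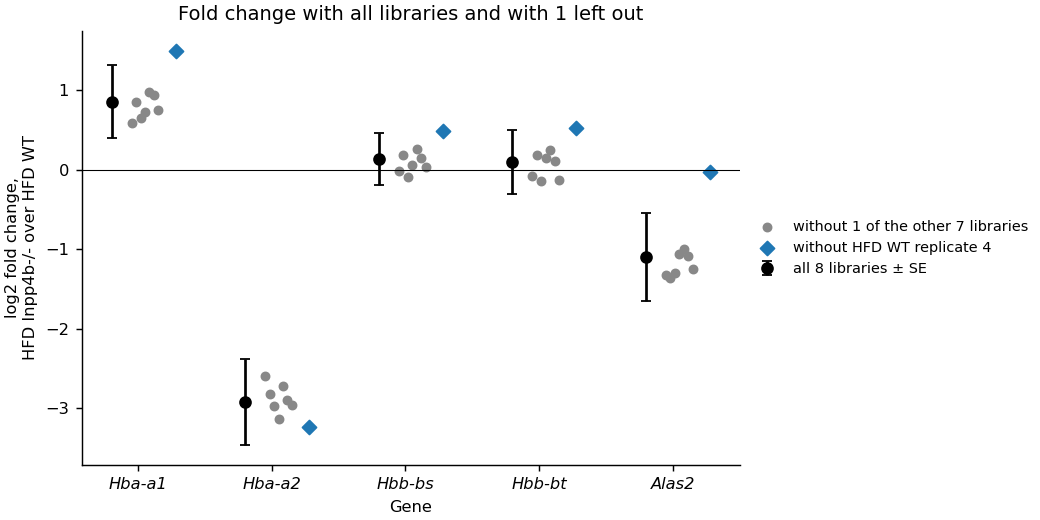
log2 fold change of each gene, HFD Inpp4b-/- over HFD WT, fitted on all 8 libraries (black, ± SE), without 1 of the other 7 libraries (gray) and without HFD WT replicate 4 (blue). Alas2 moves from -1.09 to -0.022 and Hba-a1 from 0.85 to 1.49 without that library, and Hba-a2 stays between -3.24 and -2.59 with any 1 library left out.

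Among all 14866 tested genes, edgeR called 174 (1.17%) when a Benjamini-Hochberg adjusted p below 0.1 and a fold change above 1.3 were required. In HFD Inpp4b-/-, 82 of them (0.552%) were higher and 92 (0.619%) lower. Of the 5 members, 1 met this rule, Hba-a2, on the lower side. It no longer met it with a replicate block or in 6 of 8 fits that left out a library. The CPM of the genotypes did not overlap for 8.72% of tested genes and for 1 of the 5 members, again Hba-a2. Nothing is read from these counts, since the members were picked on the same contrast.

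No gene around the members met the same rule. Within 200 kb of the alpha globin pair, 6 other genes were tested, and neither edgeR nor DESeq2 called any of them. Nprl3, whose introns hold the main enhancers of alpha globin, was at 12.3 to 16.8 CPM in HFD WT against 17.0 to 19.9 in HFD Inpp4b-/- (log2 fold change 0.25, SE 0.12, edgeR adjusted p = 0.396). HFD WT replicate 4 had its lowest value. Within 200 kb of the beta pair 1 other gene was tested, and within 200 kb of Alas2 4 were, with 0 calls by either tool. None of these 11 genes had an unadjusted edgeR p under 0.05, which 13.9% of all tested genes had. These neighbors were chosen after the values were known.

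Other genes of red cells were examined as a check of what the globin reads stand for. Of 40 such genes other than the members, 26 had a row in the count table and 24 were tested. Slc4a1 (the anion exchanger band 3), Ahsp (the alpha globin chaperone), Ank1, Epb42, Rhag and Gata1, which define red cells and their precursors, were among the 14 with no row and are not analysed here. All 18095 genes of the table had at least 1 count in all 4 libraries of a genotype. edgeR called 0 of the 24 tested genes, 3 had an unadjusted p under 0.05, 11 were higher and 13 lower, and their median log2 fold change was -0.018 beside 0.0028 for all tested genes. Their sum was 942 to 994 CPM in HFD WT against 985 to 1097 in HFD Inpp4b-/-.

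The list's most abundant genes, Epb41, Fech and Pklr, are also used by the liver. Fech, which inserts iron to finish heme, was at 152 to 172 CPM in HFD WT against 149.8 to 177 in HFD Inpp4b-/- (log2 fold change 0.013, SE 0.084). Epb41, a protein of the membrane skeleton, was at 145 to 227 and 106 to 162 CPM (-0.30, SE 0.18, edgeR adjusted p = 0.489). Pklr, the pyruvate kinase of liver and red cells, was at 128 to 204 and 177 to 315 CPM (0.53, SE 0.21, edgeR adjusted p = 0.297). With the defining red cell genes not analysed here, the blood content of each liver rests on the globin genes and was not tested.

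Klf1, which encodes a zinc finger activator of the beta globin gene, was singled out after its values were seen. It was at 3.50, 4.50, 4.11 and 0.883 CPM in HFD WT replicates 1 to 4 and at 0.915, 1.13, 0.675 and 1.07 in HFD Inpp4b-/-. HFD WT replicates 1 to 3 were high, as for Hba-a2. HFD WT replicate 4 lay among the HFD Inpp4b-/- libraries in Klf1, while in Hba-a2 it lay just above them. Its log2 fold change was -1.77 (SE 0.45, edgeR adjusted p = 0.141), and over 8 libraries its correlation with Hba-a2 was 0.91. Klf1 lies on chromosome 8, 2.77 Mb beyond the end of Inpp4b, while Hba-a2 lies on chromosome 11.

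Of the other globin genes only Cygb and Ngb had a row. Cygb, the cytoglobin of stellate cells and fibroblasts, was at 5.39 to 9.32 CPM in HFD WT against 5.44 to 6.79 in HFD Inpp4b-/- (log2 fold change -0.36, SE 0.18, edgeR adjusted p = 0.408). Ngb, the neural neuroglobin, was at 0.135 to 0.627 and 0.0643 to 0.472 CPM and below the filter. The embryonic genes Hba-x, Hbb-y and Hbb-bh1 and the muscle gene Mb are not analysed here.

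Heme synthesis, which supplies the group that globin binds, was measured through all 12 genes listed. None was called by edgeR, 1 had an unadjusted p under 0.05, and 9 were higher and 3 lower with a median log2 fold change of 0.062. Alad, the enzyme after the ALAS step, was at 129 to 224 CPM in HFD WT against 249.6 to 336 in HFD Inpp4b-/-, with no overlap (log2 fold change 0.71, SE 0.18, edgeR adjusted p = 0.137). Alas1, the housekeeping partner of Alas2, was at 767, 362, 214 and 869 CPM in HFD WT replicates 1 to 4 and at 343, 858, 581 and 499.7 in HFD Inpp4b-/- (0.045, SE 0.42). Per kilobase, Alas1 averaged 91.0 CPM against 10.2 for Alas2. Cpox, a later enzyme of the pathway, was at 201 to 358 and 238 to 281 CPM (-0.20, SE 0.16).

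Clearance of hemoglobin and heme was followed through 14 genes, of which edgeR called 0, 1 had an unadjusted p under 0.05, and 5 were higher and 9 lower (median -0.098). Hp, the haptoglobin that binds free hemoglobin, was at 1573 to 5578 CPM in HFD WT against 1918 to 2542 in HFD Inpp4b-/- (log2 fold change -0.48, SE 0.34). Hpx, the hemopexin that binds free heme, was at 2322 to 5131 and 2745 to 3149 CPM (-0.31, SE 0.21). Both were highest in HFD WT replicate 1. Fth1, the ferritin heavy chain that stores iron, was at 927 to 1323 and 1066 to 1233 CPM (0.034, SE 0.12). Hmox1, which opens the heme ring, was named after its values were seen, since it was at 53.0 CPM in HFD WT replicate 4 and at 7.97 to 20.5 in the other 7 libraries.

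Systemic control of iron was followed through 17 tested genes of 22, and edgeR called 0 with 1 at an unadjusted p under 0.05. Of these, 11 were higher and 6 lower, with a median of 0.026. Hamp, which encodes hepcidin, the hormone that blocks iron export, was at 741 to 1639 CPM in HFD WT against 1220 to 2095 in HFD Inpp4b-/- (log2 fold change 0.23, SE 0.25). Cp, the ferroxidase ceruloplasmin, was at 1066 to 1606 and 1093 to 1283 CPM (-0.16, SE 0.14), and Tmprss6, the protease that lowers hepcidin, at 484 to 585 and 522 to 588 (0.023, SE 0.091).

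Genes of the other cells of blood and liver were set beside the globin sums, and edgeR called 0 of them. Platelet genes (Itga2b, Clec1b and Gng11 the most abundant; 9 of 15 with a row) summed to 11.7 to 17.0 CPM in HFD WT against 15.9 to 17.9 in HFD Inpp4b-/-, and 4 of 5 tested were higher (median 0.21). Pf4, Ppbp, Gp1ba and Gp5 were below the filter, at no more than 0.630 CPM in any library. Their mean CPM in HFD Inpp4b-/- was higher for Pf4 and Gp5 and lower for Ppbp and Gp1ba. Neutrophil genes (S100a9, Csf3r and Il1b; 5 of 17 with a row) summed to 1.04 to 11.0 and 1.94 to 3.63 CPM, and all 4 tested were lower with a median log2 fold change of -1.06, the farthest from 0 of the 11 lists, and none at an unadjusted p under 0.05. S100a9 was at 1.95, 0.252, 0.168 and 2.65 CPM in HFD WT replicates 1 to 4 and at 0.168 to 1.06 in HFD Inpp4b-/-. In the other tested neutrophil genes too, HFD WT replicates 1 and 4 exceeded every HFD Inpp4b-/- library, and replicates 2 and 3 did not. Of the neutrophil list, Ly6g, Elane and Mpo are among those not analysed here. Lymphocyte genes (Ighm, Ighd and Igkc; 14 of 18) summed to 6.67 to 25.9 and 18.0 to 25.0 CPM, and 8 of their 9 tested genes were higher (median log2 fold change 0.63), 2 of them at an unadjusted p under 0.05. Ighm, the chain of IgM, was the tested gene of this list that was lower (log2 fold change -0.61, SE 0.57). It stood at 15.4 CPM in HFD WT replicate 4 and at 1.21 to 7.30 elsewhere. Igkc and Ighd did not stand out in that library, at 6.03 CPM (1.48 to 11.55 elsewhere) and 0.384 CPM (0.111 to 1.44 elsewhere). The part of these cells in the globin differences was not tested.

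Kupffer cells are the liver macrophages that take up old red cells. Their 12 genes (Clec4f, Cd5l and C1qa the most abundant) summed to 80.9 to 228 CPM in HFD WT against 153 to 270 in HFD Inpp4b-/-, and 10 of the 12 were higher with a median of 0.31. Clec4f was at 20.6, 61.8, 40.2 and 58.9 CPM in HFD WT replicates 1 to 4 and at 70.1, 55.9, 77.6 and 47.9 in HFD Inpp4b-/- (log2 fold change 0.47, SE 0.30, edgeR adjusted p = 0.526). HFD WT replicates 1 and 3, which had the fewest globin reads, also had the lowest Clec4f. The order of libraries differed among the genes of the list. Cd5l and C1qa were lowest in HFD WT replicate 1, at 12.5 and 12.3 CPM. Next came HFD Inpp4b-/- replicate 4, at 19.4 and 19.3 CPM, which had a globin sum of 325 CPM. Marco, a scavenger receptor of macrophages named after its values were seen, was at 8.71 CPM in HFD WT replicate 4 and at 0.221 to 1.42 elsewhere. The part of these cells in the globin differences was not tested.

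Endothelial genes of the liver (Stab1, Eng and Dnase1l3 the most abundant of 10) summed to 257 to 334 and 262 to 322 CPM, with a median log2 fold change of 0.042. Hepatocyte genes (Alb, Apoa1 and Apoa2 the most abundant of 12) had a median of -0.025, with 6 higher and 6 lower and 2 at an unadjusted p under 0.05. Over all lists, edgeR called 0 of 118 tested genes, against 1.17% of all tested genes, and 10 (8.47%) had an unadjusted p under 0.05 against 13.9% of all. DESeq2 called 3 of 128 (2.34%), namely Alad, Cd79b of B cells and Klf1, against 4.04% of all 17016 genes with an adjusted p. Each of these shares was below that of all genes.

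**Figure D4:**
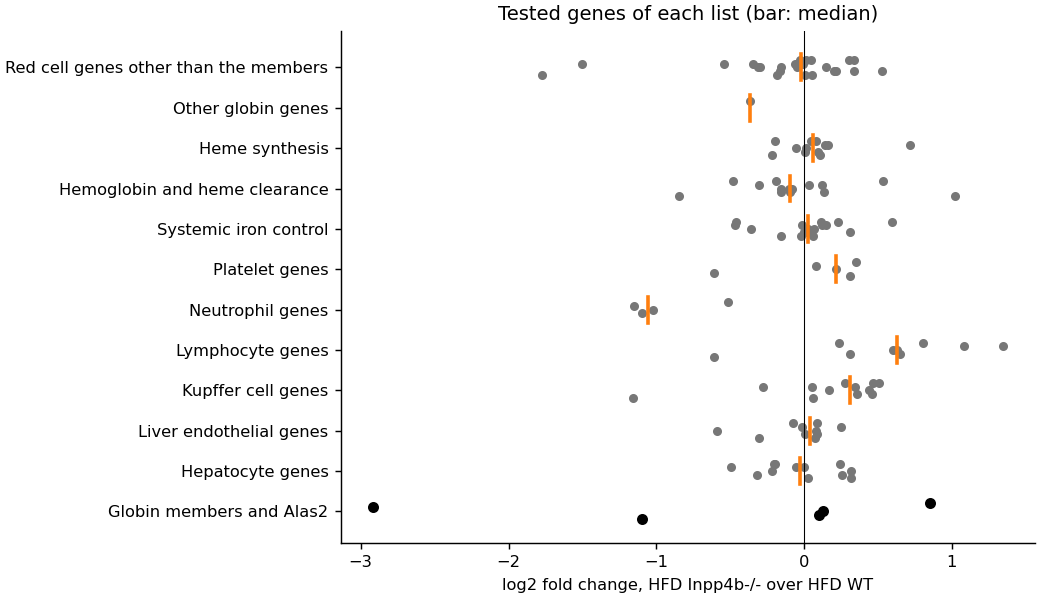
log2 fold change, HFD Inpp4b-/- over HFD WT, of each tested gene in 11 lists (gray points; orange bars, list medians) and of the 5 members (black, bottom row). The members spread from -2.92 to 0.85, and the median of the red cell list stands at -0.018.

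The genes whose levels ran most like the globin sum over the 8 libraries were not red cell genes. By Pearson correlation of log2 CPM among 14861 genes, the 10 nearest were Snhg6 (0.97), Snora20 (0.95), Fgd2, Gm19572, Eps15l1, Pou2f2, Gm39526, Cbx6, Gm6877 and Adgrg3 (0.93), none of them in a list above. Snhg6 is a host gene of small nucleolar RNA, and Fgd2 and Pou2f2 are genes of leukocytes, the first an exchange factor for Cdc42 and the second a transcription factor of B cells. Of the 24 tested red cell genes, the nearest was Tal1, an erythroid and hematopoietic transcription factor, at 0.66 and rank 867, and the median over them was 0.15 beside 0.013 for all genes. With 8 libraries, 13.8% of all genes had a correlation above 0.5, as 3 of the 24 did. These are descriptions over 8 libraries with a shared normalization. Some of the 10 nearest genes had low levels, such as Pou2f2 (0.221 to 1.96 CPM in HFD WT, 0.657 to 1.525 in HFD Inpp4b-/-). Only 1 to 5 of the 10 stayed when a library was left out.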

How the data were processed

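The authors aligned 150-base paired reads to GRCm38 with HISAT2 and counted them per gene with HTSeq. They also aligned and counted with STAR, tested both sets of counts with DESeq2, and kept genes that changed with both aligners. The counts used here are those from HISAT2 alone, so the calls here follow another procedure than those of the authors. The authors deposited raw counts of 18095 genes. The deposited normalized signal is these counts over 1 size factor per library and was not used further. Strand, multi-mapping and annotation settings are not given in the sources used here. Identifiers were matched to GENCODE M21 (18095 of 18095).

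Counts were fitted with edgeR 4.0.16 in R 4.3.3 (TMM, filterByExpr, glmQLFit and glmQLFTest, no covariate; adjusted p under 0.1, fold change over 1.3, the thresholds of the study). SE is the absolute log2 fold change over the square root of F. The prior count of log2 CPM was 2. The procedure was tested on simulated data, which did not model reads shared between paralogs. The alternatives were DESeq2 1.42.0, other scalings and filters, a block for the replicate number, and fits that left out 1 library each. Intervals (scipy 1.17.1) cover counting error only.

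The members and the gene lists were chosen with earlier results of these data known. Named genes are the members, Inpp4b, called genes of a list, the 3 genes of highest mean CPM in each list, other globin genes in the table, Alas1, and the 10 genes nearest to the globin sum. Any other gene named was chosen after its values were seen.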

Additional observations from a re-analysis of the deposited data

Results flagged for a closer look

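In 42 groups of 4 libraries, made up of the members, their ratios and the summed lists in each genotype, 2 libraries stood apart from the other 3 of their group by Dixon's test. Chance sets apart about 1 in 20 groups, 2.1 here. Alas2 in HFD WT replicate 4 was 86.4 CPM, and the next of that group was 18.2 CPM. Alas2 counts per 1000 globin counts were 44.7 in HFD Inpp4b-/- replicate 1, and the next of that group was 63.1.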

How the results depend on the processing

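Across other scalings, filters and DESeq2, the log2 fold changes of the 5 members moved by less than 1 SD between replicates, as did the globin sum across the 4 other scalings, the only ones run for it. Hba-a2 has no value with a minimum of 10 counts in every library. It met the rule for calls in 6 of 7 other fits and in 2 of 8 fits that left out a library. Leaving out a library gave 0.59 to 1.49 for Hba-a1, -3.24 to -2.59 for Hba-a2, -0.090 to 0.49 for Hbb-bs, -0.15 to 0.53 for Hbb-bt, -1.36 to -0.022 for Alas2 (-0.022 without HFD WT replicate 4) and 0.34 to 1.04 for the globin sum. The difference in the Hba-a1 share of alpha was 2.84 to 6.63 percentage points, in the Hbb-bt share -0.71 to 0.93, and in the alpha to beta ratio 0.69 to 0.93. The 174 calls became 688 with DESeq2, 71 at an adjusted p under 0.05, and 53 (without HFD Inpp4b-/- replicate 2) to 345 (without HFD WT replicate 2) with a library left out. Calls in the lists were 3 with DESeq2, 0 to 1 with a library left out (Alad without HFD WT replicate 2, Klf1 without HFD WT replicate 4) and otherwise 0. Of the 10 genes nearest to the globin sum, 1 to 5 stayed when a library was left out and 3 by Spearman correlation. With Hba-a2 or Alas2 in place of the sum, alternatives added after the data were seen, 0 were shared. The causes were not tested.

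Replicate numbers are shared between the genotypes, but same-numbered libraries did not deviate together (correlations -0.17 to -0.011, other pairs -0.034 to 0.14). With a replicate block, 26 genes were called, and the log2 fold changes were 1.11 for Hba-a1, -2.75 for Hba-a2 (no longer called), 0.25 for Hbb-bs, 0.25 for Hbb-bt and -0.64 for Alas2. Depth limits Hba-a2 most, with 9 to 21 counts in 5 libraries.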
